A study of Mus musculus with 4 samples.

Results

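The transporters that move bile acids and organic anions across the hepatocyte membrane were followed in fasted mouse livers that lack Cpt1a. They are 10 genes chosen by name out of 54532 in the count table. The canalicular export pumps are Abcb11, Abcb4 and Abcc2, and the sinusoidal export pumps are Abcc3 and Abcc4. The sinusoidal uptake carriers are Slc10a1, Slco1a1, Slco1a4, Slco1b2 and Slco2b1.

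Hepatocytes take bile acids up from portal blood at the sinusoidal membrane, mainly through the sodium-dependent carrier NTCP (Slc10a1) and through organic anion transporting polypeptides of the Slco family. They secrete them into the bile canaliculus through the bile salt export pump BSEP (Abcb11). MDR2 (Abcb4) flops phosphatidylcholine into bile, MRP2 (Abcc2) exports conjugated anions such as bilirubin glucuronide, and MRP3 (Abcc3) and MRP4 (Abcc4) send anions back into blood. In mouse liver the bile acid receptor FXR (Nr1h4) is known to raise Abcb11 and to raise the repressor SHP (Nr0b2), which lowers bile acid synthesis and uptake.

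The series holds 1 group, 4 libraries of liver RNA from mice with a liver-specific knockout of Cpt1a, killed after a fast of 24 h, and the labels give neither strain, sex nor age. Cpt1a encodes the carnitine palmitoyltransferase of the outer mitochondrial membrane, through which long-chain fatty acids enter oxidation. Each library is called a liver below; whether each came from its own mouse is not labelled, so p-values and spreads may reflect technical variation. The authors' deposited tables compare this group with a Cpt2 group and with a reference group, and they head both knockout groups AlbCre, a Cre driven by the albumin promoter, which acts in hepatocytes. The design text describes littermate controls, a fast of 24 h for all mice and Cpt2 samples of an earlier series. The heading of the reference group joins Rab30, Cpt2 and f, and what it stands for is not given in the sources used here. Since sequencing runs are not given either, batch and genotype cannot be told apart. Cpt2 itself was at a log2 fold change of −0.07 (adjusted p = 0.837) in the Cpt2 group against the reference group in the authors' deposited table, so its transcript level does not show the deletion that the label names. No source used here names the deleted exons, and "Cpt2 group" means the group with that label throughout.

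Each liver had 13138884 to 14116441 counts, of which the 10 transporters took 0.329 to 0.462%. In the authors' deposited table Cpt1a stood 6.91-fold below the reference group (log2 fold change −2.79, adjusted p = 5.27e-51). Hepatocyte markers summed to 22896 to 32180 FPKM (fragments per kilobase of gene and per 1000000 reads, which corrects for gene length and depth), and none of the 8 was at 0. Bile duct markers summed to 9.52 to 14.2 FPKM, with the defining keratins Krt19 and Krt7 at means of 0.270 and 0.0481. Most of that sum came from Spp1, at a mean of 8.24 FPKM. The authors' deposited tables call 4 of the 8 hepatocyte markers lower than the reference group in the Cpt1a knockout and 5 in the Cpt2 group, with Alb at log2 fold changes of −1.23 and −1.41. The markers did not move alike. Not called in the Cpt1a knockout were Cyp2e1 (−0.46) and, as untested sums described below, Apoa1 (−0.46), Asgr1 (−0.16) and Ttr (0.08). Not called in the Cpt2 group were Hnf4a (−0.36), Asgr1 (−0.27) and Apoa1 (−0.12), in the authors' deposited table. Kupffer cell and macrophage markers, 150 to 181 FPKM in sum, included 2 higher genes and no lower one among 8 in the Cpt1a knockout, and 1 higher and 3 lower in the Cpt2 group, by the authors' deposited tables. Of those 8 genes, 7 were higher in the Cpt1a knockout than in the Cpt2 group in the authors' deposited table. Over all genes, 14.4% were called in the Cpt1a knockout and 21.0% in the Cpt2 group against the reference group. Between both knockout groups 28.8% were called. The part of these markers in the results below was not tested. In whole liver, fewer hepatocytes and less RNA per hepatocyte cannot be told apart.

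The stretches of 250 bases before the start of 4 transporter genes are given because these 4 had the largest changes in the Cpt2 group against the reference group. They were taken from RefSeq (GRCm38.p6), which held such a stretch for 9 of the 10 genes, and they are written 5′ to 3′ on the gene's strand. Capitals mark matches on either strand to the FXR-type inverted repeat IR1 in a loose form (GGNCA, then any base, then TGANC), the nuclear receptor hexamer AGGTCA, the HNF1 hexamer GTTAAT and, of core promoters, TATAAA. The nuclear receptor hexamer can overlap the inverted repeat.
Abcb11, chr2:69342617-69342866, minus strand: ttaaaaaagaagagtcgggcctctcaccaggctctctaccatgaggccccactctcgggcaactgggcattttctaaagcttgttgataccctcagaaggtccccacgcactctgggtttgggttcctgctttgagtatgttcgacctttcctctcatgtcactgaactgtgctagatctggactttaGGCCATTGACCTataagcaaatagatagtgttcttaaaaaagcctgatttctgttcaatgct
Slc10a1, chr12:80968706-80968955, minus strand: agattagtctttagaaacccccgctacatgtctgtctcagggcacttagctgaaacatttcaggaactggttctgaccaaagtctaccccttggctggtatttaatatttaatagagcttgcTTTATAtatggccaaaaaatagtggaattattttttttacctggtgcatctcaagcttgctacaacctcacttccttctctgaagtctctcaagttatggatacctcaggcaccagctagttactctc
Slco1a4, chr6:141856221-141856470, minus strand: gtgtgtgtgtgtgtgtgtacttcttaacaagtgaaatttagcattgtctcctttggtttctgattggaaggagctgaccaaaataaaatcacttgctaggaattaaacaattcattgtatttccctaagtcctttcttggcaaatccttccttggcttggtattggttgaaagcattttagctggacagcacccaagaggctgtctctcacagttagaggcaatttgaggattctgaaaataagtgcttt
Slco1a1, chr6:141946963-141947212, minus strand: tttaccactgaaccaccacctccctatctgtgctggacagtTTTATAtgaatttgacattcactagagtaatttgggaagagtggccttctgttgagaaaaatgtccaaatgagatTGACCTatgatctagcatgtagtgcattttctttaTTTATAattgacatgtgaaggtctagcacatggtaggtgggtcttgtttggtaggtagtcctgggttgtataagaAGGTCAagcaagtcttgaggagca

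The inverted repeat was found in Abcb11, with its first base 62 bases before the start, and in Slco1b2, 87 bases before it, and in none of the other 7 stretches. Over all 32851 stretches of this length, 0.935% held it. AGGTCA stood in Abcb11, Abcc2, Slco1a1 and Slco1b2, against 14% of all stretches. TATAAA was found in Slc10a1, Slco1a1 and Slco1b2 (12.4% of all) and GTTAAT in Slco1b2 (6.43%). The TATAAA matches began 128 bases before the start in Slc10a1, 209 and 99 in Slco1a1, and 234 and 227 in Slco1b2. The strict form of the repeat (GGTCA, then any base, then TGACC) was in none of the 9 and in 0.0335% of all stretches. These matches describe letters and not binding, which was not measured.

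Among the uptake carriers, Slco1b2 and Slc10a1 were the most abundant transcripts of the 10 genes. Slco1b2 (ENSMUSG00000030236, chromosome 6, 141629518 to 141686646, plus strand, GRCm38), which carries bile acids, bilirubin and drugs, was at 270, 197, 181 and 179 FPKM in livers 1 to 4 (206 ± 42.9, SD, n = 4). Slc10a1 (ENSMUSG00000021135, chromosome 12, 80953183 to 80968705, minus strand) was at 229, 180, 191 and 183 FPKM (196 ± 22.7, SD, n = 4). Liver 1 was highest for both, and the other 3 livers lay close together. Their means differed by a factor of 1.06, and Slco1b2 was above Slc10a1 in 2 of 4 livers, so their order was not separated from the spread. Together they made up 85.1 to 88.4% of the FPKM of the 5 uptake carriers.

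The other uptake carriers were at lower levels. Slco1a1 (ENSMUSG00000041698, chromosome 6, 141907282 to 141946962, minus strand), an anion carrier of the adult male liver in particular, was at 37.3, 38.3, 27.4 and 21.6 FPKM (31.1 ± 8.04, SD, n = 4). Livers 1 and 2 were high and liver 4 lowest, a range of 1.77-fold. Slco2b1 (ENSMUSG00000030737, chromosome 7, 99657804 to 99711340, minus strand), a carrier of steroid sulfates, was at 17.6, 16.4, 16.5 and 17.4 FPKM. It varied least of the 10 genes by ratio, with a range of 1.07-fold. Slco1a4 (ENSMUSG00000030237, chromosome 6, 141805440 to 141856199, minus strand), which also carries cardiac glycosides, was at 10.9, 11.3, 12.6 and 8.21 FPKM, with liver 4 apart from the rest.

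Among the export pumps, Abcc2 (ENSMUSG00000025194, chromosome 19, 43782192 to 43840740, plus strand) had the highest FPKM, at 112, 102, 58.9 and 81.2 (88.6 ± 23.7, SD, n = 4). Abcb4 (ENSMUSG00000042476, chromosome 5, 8893717 to 8959231, plus strand) was at 69.9, 51.5, 50 and 58.4 FPKM (57.5 ± 9.04, SD, n = 4). Abcb11 (ENSMUSG00000027048, chromosome 2, 69238282 to 69342616, minus strand) was at 36.2, 26.3, 18.7 and 21.1 FPKM (25.6 ± 7.76, SD, n = 4). For all 3 canalicular pumps liver 1 was highest and liver 3 lowest. Abcb11, the pump for bile salts themselves, gave 13.1 to 16.6% of their summed FPKM and Abcc2 46.1 to 56.7%. The count data give Abcb4 a gene length of 9383 bases and Abcc2 8532. Their longest GENCODE vM21 transcripts have 4079 and 8027 bases. The order of Abcc2 and Abcb4 and these shares therefore depend on the length used.

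The sinusoidal export pumps lay far apart. Abcc3 (ENSMUSG00000020865, chromosome 11, 94343295 to 94392997, minus strand) was at 59.2, 45.8, 38.1 and 39.3 FPKM (45.6 ± 9.65, SD, n = 4), with liver 1 highest. Abcc4 (ENSMUSG00000032849, chromosome 14, 118482692 to 118706219, minus strand), an exporter of bile acids with glutathione and of cyclic nucleotides, was at 0.730, 0.760, 0.612 and 0.637 FPKM. It rested on 62 to 73 counts per liver, and its coefficient of variation of 10.2% was below the 12.2% that counting alone gives at this depth. The remaining 9 genes had mean counts of 1063 to 15628.

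By mean FPKM the order was Slco1b2, Slc10a1, Abcc2, Abcb4, Abcc3, Slco1a1, Abcb11, Slco2b1, Slco1a4 and Abcc4. For 8 of the 9 neighbouring pairs the higher gene was higher in every liver, the exception being the leading pair. For Abcc2 and Abcb4 this holds for the deposited gene lengths and depends on the length used. The smallest step among those 8 was from Slco1a1 to Abcb11, a factor of 1.22, and the largest was from Slco1a4 to Abcc4, a factor of 15.7.

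**Figure D1:**
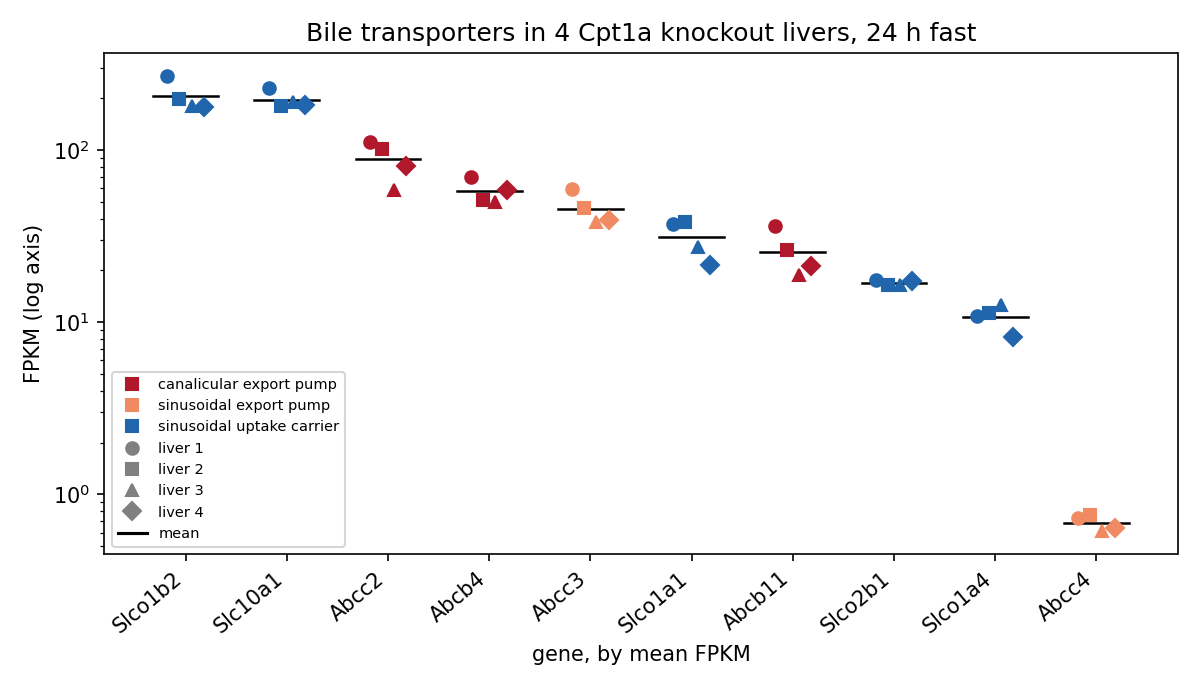
FPKM (log axis) of the 10 transporter genes in each of the 4 Cpt1a knockout livers, ordered by mean FPKM, with a line at each mean; colours give the membrane and direction of transport. Slco1b2 and Slc10a1 lie at about the same level, and Abcc4 lies 15.7-fold below Slco1a4 (ratio of mean FPKM).

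Livers differed unequally across the genes. Liver 1 had the highest FPKM for 7 of the 10 and the lowest for none, while liver 3 was lowest for 5 and liver 4 for 3. On the log2(FPKM + 1) scale, the SD between livers was largest for Abcc2 (0.41), Abcb11 (0.40) and Slco1a1 (0.38), above that of 87.9, 87.5 and 85.7% of the 10859 genes with a mean FPKM of at least 1. It was smallest for Slco2b1 (0.048) and Abcc4 (0.061), the latter being 0.13 on the log2(FPKM + 0.1) scale, and the median over those 10859 genes was 0.20. Liver 1 set much of this spread: without it the SD was 0.24 for Abcb11, 0.12 for Abcb4 (0.22 with all livers), 0.14 for Abcc3 (0.28), 0.05 for Slc10a1 (0.16) and 0.08 for Slco1b2 (0.28). Liver 1 also held the only counts of the pancreas genes Prss2 (29 counts) and Cpa1 (14 counts), which were at 0 in the other 3 livers. Cela1, of the same marker list, had 115, 115, 137 and 155 counts in livers 1 to 4 and was not highest in liver 1. The part of these genes in the transporter levels of liver 1 was not tested. Without liver 3 the SD of Abcc2 was 0.24, and without liver 4 that of Slco1a4 was 0.10 (0.24 with all livers). Counting error was 0.80 to 3.07% for the 9 genes other than Abcc4, whose counts varied between livers by 3.42 to 27.0% (coefficient of variation per 1000000 reads counted).

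**Figure D2:**
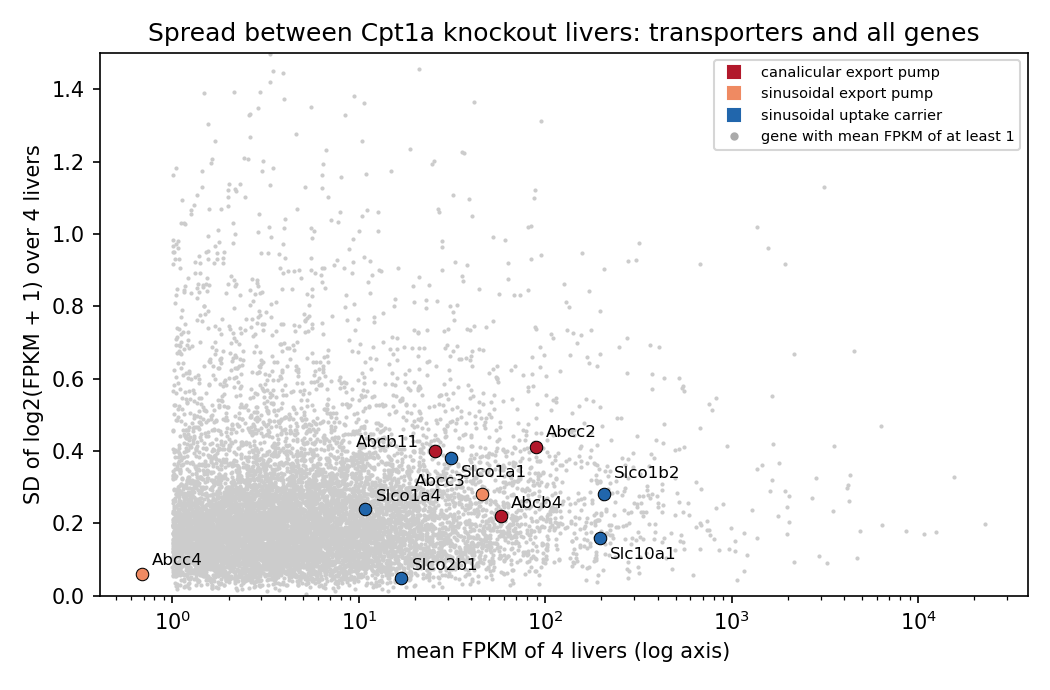
SD over the 4 Cpt1a knockout livers of log2(FPKM + 1) against mean FPKM (log axis), for the 10 transporters in colour and the 10859 genes with a mean FPKM of at least 1 in grey. Abcc2, Abcb11 and Slco1a1 lie at SDs of 0.38 to 0.41, and Slco2b1 near the lower edge at 0.048; the axis ends at 1.5, and 17 grey genes lie above it.

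Compared with the reference group, the livers without Cpt1a had less transcript of 1 canalicular pump and of 1 uptake carrier. Abcb11 was lower by a factor of 2.20 (log2 fold change −1.14, adjusted p = 6.06e-05) in the authors' deposited table. Slco1a4 was lower by a factor of 3.11 (log2 fold change −1.64, adjusted p = 7.85e-06) in the authors' deposited table. By the authors' adjusted p below 0.05, 2 of the 10 genes were lower and none higher, against 14.4% of all genes called in either direction, 6.81% higher and 7.60% lower. The median log2 fold change of the 10 was −0.22, where 6 of the values are the untested sums described below. Beside it, the median of such sums was 0.00 for all genes whose mean count in the 4 livers reached 10. The authors' deposited tables carry no SD.

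Slc10a1 (log2 fold change −0.49, adjusted p = 0.0560) and Slco2b1 (−0.27, adjusted p = 0.181) were listed in the authors' deposited table and not called. The remaining 6 genes were not among the 4461 genes listed there, all of which had an unadjusted p of at most 0.05. For these 6, the log2 fold changes of the authors' other 2 deposited tables were added, which gives the Cpt1a knockout against the reference group without a test. The sums were 0.35 for Slco1a1, 0.30 for Abcb4, 0.17 for Slco1b2, 0.14 for Abcc4, −0.17 for Abcc2 and −0.35 for Abcc3. For the 4 listed genes the sum and the listed value differed by 0.011 to 0.014.

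In the Cpt2 group, more of the transporters differed from the reference group, and in both directions. Of the 5 uptake carriers 3 were lower and none higher, and of the 5 export pumps 2 were higher and 1 lower. In all, the authors' deposited table called 2 of the 10 higher and 4 lower, against 21.0% of all genes called (10.3% up, 10.7% down). The median of the 10 was −0.30, beside −0.01 for all genes. This comparison uses the same reference samples as the one before, so the 2 are set side by side only by their values.

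Abcb11 had the largest change of the 10 there, 6.0-fold lower (log2 fold change −2.58, adjusted p = 1.07e-23) in the authors' deposited table. Slco1a4 was 3.92-fold lower (−1.97, adjusted p = 0.00498) and Slco1a1 3.02-fold lower (−1.59, adjusted p = 2.93e-07) in the authors' deposited table. Slc10a1 was 2.15-fold lower (−1.10, adjusted p = 1.31e-07) in the authors' deposited table. The anion pump Abcc3 and the phospholipid floppase Abcb4 moved the opposite way. Abcc3 was 1.73-fold higher (0.79, adjusted p = 0.0200) and Abcb4 1.63-fold higher (0.70, adjusted p = 5.73e-04) in the authors' deposited table.

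No call was made in the Cpt2 group for Slco1b2 (log2 fold change −0.53, adjusted p = 0.115), Abcc2 (0.34, adjusted p = 0.360), Slco2b1 (−0.06, adjusted p = 0.789) and Abcc4 (0.07, adjusted p = 0.911) in the authors' deposited table. For 8 of the 10 genes the size of the log2 change from the reference group was larger in the Cpt2 group than in the Cpt1a knockout. For 6 of the 10 the Cpt1a value is the untested sum. The same count over all genes was not made. Among all genes, more were called in the Cpt2 group (21.0%) than in the Cpt1a knockout (14.4%).

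**Figure D3:**
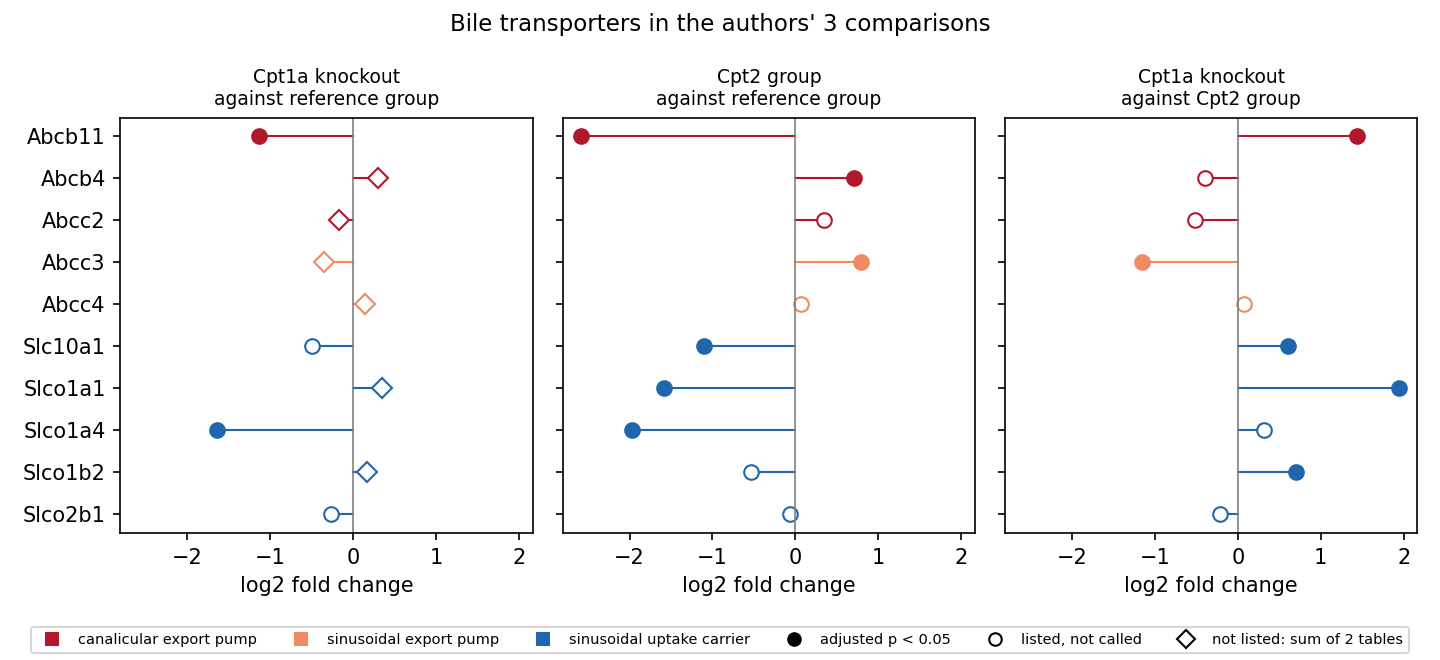
Log2 fold change of each transporter in the authors' 3 comparisons; filled symbols have an adjusted p below 0.05, open circles are listed but not called, and diamonds are genes missing from the partial table, shown as the sum of 2 other tables. Against the reference group 2 genes are filled in the Cpt1a knockout and 6 in the Cpt2 group; between both knockout groups 5 are filled.

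The authors' direct comparison of both knockout groups tests where their changes differ. This deposited table of the authors called 4 of the 10 genes higher and 1 lower in the Cpt1a knockout than in the Cpt2 group, against 28.8% of all genes called (14.2% up, 14.6% down). The median of the 10 was 0.20, beside 0.03 for all genes.

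Slco1a1 differed most, 3.83-fold higher in the Cpt1a knockout (log2 fold change 1.94, adjusted p = 1.37e-16) in the authors' deposited table. Abcb11 was 2.71-fold higher (1.44, adjusted p = 4.42e-07), although it was below the reference group in both, in the authors' deposited tables. Slco1b2 was 1.62-fold higher (0.70, adjusted p = 0.00255) and Slc10a1 1.52-fold higher (0.60, adjusted p = 5.39e-04) in the authors' deposited table. Abcc3 was 2.21-fold lower in the Cpt1a knockout (−1.15, adjusted p = 2.35e-05) in the authors' deposited table.

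Slco1a4, lower than the reference group in both, had a log2 fold change of 0.32 between the knockout groups (adjusted p = 0.517) in the authors' deposited table, so no difference between them was called. Abcb4 (−0.40, adjusted p = 0.0594), Slco2b1 (−0.22, adjusted p = 0.0893) and Abcc2 (−0.51, adjusted p = 0.111) had unadjusted p of 0.0180, 0.0303 and 0.0401 and were not called in the authors' deposited table. Abcc4 was at 0.08 on the log2 scale (adjusted p = 0.857) in the authors' deposited table. Abcc2, Abcc4 and Slco2b1 were called in none of the authors' 3 deposited tables.

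Other call rules changed the counts little. With an adjusted p below 0.01, the 3 comparisons in the order above called 2, 5 and 5 of the 10 genes, against 8.24, 14.8 and 19.7% of all genes. With an adjusted p below 0.10 they called 3, 6 and 7, against 18.8, 25.7 and 35.0%. With an added minimum change of 1.5-fold they called 2, 6 and 5, against 12.6, 17.8 and 22.0%. Among genes with a mean count of 10 or more the complete tables called 6 and 5, against 24.3 and 35.4%.

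Slco1b2, Slco1a4 and Slco1a1 lie in 1 cluster of 317 kb on chromosome 6, with 119 kb between the first pair and 51.1 kb between the second. Against the reference group Slco1a4 was called lower in both knockout groups, Slco1a1 in the Cpt2 group but not the Cpt1a knockout, and Slco1b2 in neither, while Slco1a1 and Slco1b2 were both higher in the Cpt1a knockout than in the Cpt2 group, by the authors' deposited tables. In the 4 livers the ratio of Slco1a1 to Slco1a4 by FPKM was 3.42, 3.39, 2.17 and 2.63. Slco1a5 and Slco1a6, related genes further along the cluster, had no count in any of the 4 livers. Of the 50-base windows of the longest GENCODE vM21 transcript, 2.26% of Slco1a1 and 2.73% of Slco1a4 also occurred in other Slco1a genes, and 3.42% of Abcb4 in Abcb1a or Abcb1b, so a small share of their reads may be hard to assign. Slco2b1 overlaps the antisense genes Gm15635 and Gm34280, with mean counts of 46.0 and 11.2, and strandedness is not given. No such 50-base window was shared for Abcb11, Abcc3, Abcc4, Slc10a1, Slco1b2 and Slco2b1.

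Genes that act with these transporters were taken from lists, and each list's share of called genes is read against the 14.4% of all genes called in the Cpt1a knockout and the 21.0% in the Cpt2 group. Among 14 regulators, the Cpt1a knockout had 1 higher and 1 lower than the reference group and the Cpt2 group 2 higher and 4 lower in the authors' deposited tables. These are 14.3 and 42.9% of the list, the first at the share of all genes. Nr1i3 (CAR), a xenobiotic receptor known to raise Abcc pumps and Slco1a4, was higher in both, at log2 fold changes of 1.60 (adjusted p = 8.66e-06) and 1.12 (0.00113), in the authors' deposited tables. Hnf4a was lower in the Cpt1a knockout (−0.70, adjusted p = 0.0166) in the authors' deposited table. Fgfr4, the FGF receptor that relays intestinal signals on bile acids, was at −0.46 (adjusted p = 0.118) in the Cpt1a knockout and lower in the Cpt2 group (−1.05, adjusted p = 1.04e-05) in the authors' deposited tables. Ppara was at 0.64 (adjusted p = 0.0642) in the Cpt1a knockout and higher in the Cpt2 group (0.72, adjusted p = 0.0386) in the authors' deposited tables.

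The receptor FXR itself, Nr1h4, and SHP, Nr0b2, are given although they were chosen after their values were seen. Nr1h4 was at 57.2, 59.3, 63.4 and 59.7 FPKM in the 4 livers and at a log2 fold change of −0.10 (adjusted p = 0.752) in the Cpt2 group in the authors' deposited table. Nr0b2 was at 9.36, 5.70, 9.80 and 17.6 FPKM, with liver 4 highest. It was lower in the Cpt2 group than in the reference group (log2 fold change −3.95, adjusted p = 5.49e-18) and higher in the Cpt1a knockout than in the Cpt2 group (3.07, adjusted p = 2.44e-14) in the authors' deposited tables. Neither gene was listed for the Cpt1a knockout against the reference group. Their untested summed log2 fold changes were −0.88 for Nr0b2 and −0.06 for Nr1h4.

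Of 16 genes of bile acid synthesis and conjugation, 7 were lower and 1 higher in the Cpt1a knockout than in the reference group in the authors' deposited table. In the Cpt2 group 11 were lower and 2 higher, also in the authors' deposited table. The medians were −0.44, taken from the sums of the authors' other 2 tables, and −0.97. Called genes made up 50% and 81.2% of this list. The 4 with the smallest adjusted p in the Cpt1a knockout were Acox2, a peroxisomal oxidase of the side chain (−1.50, adjusted p = 1.02e-14), Akr1d1 (−1.10, 4.31e-08), Slc27a5, a bile acid-CoA ligase (−1.20, 2.65e-07), and Cyp39a1 (−1.61, 7.88e-06), in the authors' deposited table. In the Cpt2 group these were at −1.09, −4.49, −1.32 and −1.42 in the authors' deposited table. Cyp7a1, the rate-limiting enzyme of the classic pathway and chosen after its values were seen, was lower in the Cpt2 group (−3.46, adjusted p = 5.79e-05) and was not listed for the Cpt1a knockout, in the authors' deposited tables. It was at 29.2, 41.3, 51.0 and 13.6 FPKM in the 4 livers, with liver 4 lowest.

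Of 11 other canalicular transporters and flippase subunits, 1 was lower in the Cpt1a knockout and 2 in the Cpt2 group than in the reference group, and none was higher, in the authors' deposited tables. These are 9.09 and 18.2% of the list, not above the shares of all genes. Atp8b1, the aminophospholipid flippase that protects the canalicular membrane, was lower in both (−1.04, adjusted p = 3.7e-04, and −1.0, adjusted p = 4.77e-05) in the authors' deposited tables. Abcg8, a subunit of the cholesterol exporter, was at −0.55 (adjusted p = 0.12) in the Cpt1a knockout in the authors' deposited table. The list of 12 other basolateral genes holds transporters and the epoxide hydrolase Ephx1. Of these, 2 were higher in the Cpt1a knockout, among them Abcc5 (0.68, adjusted p = 0.0326), an exporter of cyclic nucleotides, by the authors' deposited table. In the Cpt2 group 1 was higher, Ephx1 and so no transporter, and 2 were lower, by the authors' deposited table. These are 16.7 and 25% of the list, near the shares of all genes. Slco2a1, a prostaglandin carrier, was at −0.61 (adjusted p = 0.0526) in the Cpt1a knockout and lower in the Cpt2 group (−0.96, adjusted p = 1.57e-08) in the authors' deposited tables.

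Of 12 genes of the canalicular scaffold and trafficking, 2 were lower in the Cpt1a knockout and 2 higher and 1 lower in the Cpt2 group by the authors' deposited tables. These are likewise 16.7 and 25% of the list, near the shares of all genes. Slc9a3r1 (NHERF1), a scaffold that binds Abcc2, was lower in both (−0.81, adjusted p = 5.13e-06, and −1.53, adjusted p = 3.83e-17) in the authors' deposited tables. Msn, a membrane-cytoskeleton linker, was at 0.52 (adjusted p = 0.0570) in the Cpt1a knockout in the authors' deposited table. Of 8 phase II enzymes, which make conjugates that these pumps carry, 1 was lower in the Cpt1a knockout, Sult1a1 (−1.79, adjusted p = 1.36e-09), and 1 was higher and 4 lower in the Cpt2 group, by the authors' deposited tables. These are 12.5 and 62.5% of the list. Papss2 and Sult2a8 were at −0.51 (adjusted p = 0.0517) and 0.66 (adjusted p = 0.187) in the Cpt1a knockout in the authors' deposited table. Gsta1, a glutathione transferase, was not listed there and was higher in the Cpt2 group (4.97, adjusted p = 2.94e-12) in the authors' deposited table; it had 0 to 9 counts in the 4 livers and was chosen after its values were seen.

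**Figure D4:**
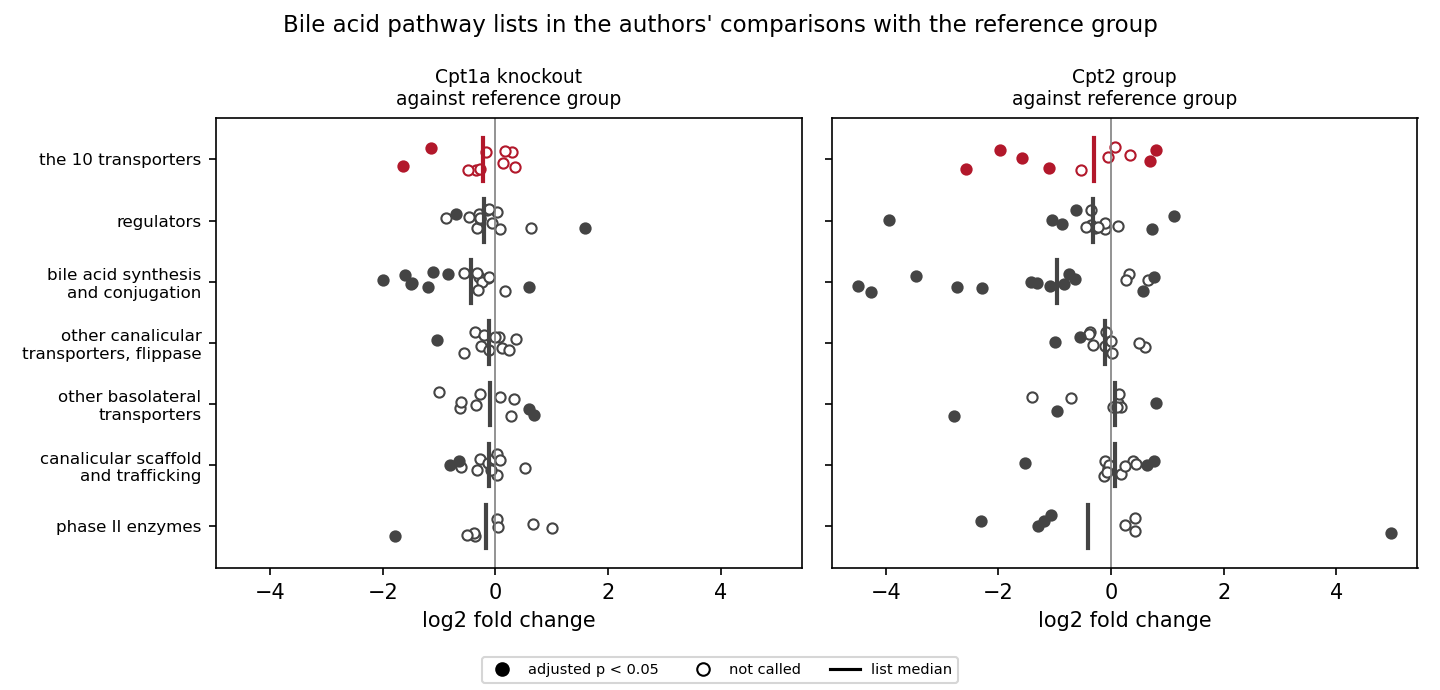
Log2 fold change against the reference group of the 10 transporters and of 6 lists of genes that act with them, in the Cpt1a knockout (left) and the Cpt2 group (right); filled points have an adjusted p below 0.05, bars are list medians, and genes missing from the partial table are open points at the sum of the other 2 tables. Bile acid synthesis genes have medians of −0.44 and −0.97, and the transporters −0.22 and −0.30.

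Hepatocyte zone markers moved in the same comparisons. The marker counts below stand against 14.4% of all genes called in the Cpt1a knockout and 21.0% in the Cpt2 group. All 7 periportal markers were lower in the Cpt1a knockout and 6 of 7 in the Cpt2 group, with medians of −1.54 and −2.05, in the authors' deposited tables. Pericentral markers were higher in 2 and lower in 3 of 7 in the Cpt1a knockout, and higher in 1 and lower in 6 of 7 in the Cpt2 group, by the authors' deposited tables. Glul, glutamine synthetase of the pericentral cells, was lower in the Cpt2 group (−1.58, adjusted p = 6.14e-14) and higher in the Cpt1a knockout than there (1.73, adjusted p = 1.62e-22) in the authors' deposited tables. Bile duct markers were lower in 1 of 8 in the Cpt1a knockout and in 2 of 8 in the Cpt2 group, by the tables the authors deposited. The lower one in both was Slc10a2, the bile acid carrier of cholangiocytes (−1.26, adjusted p = 6.04e-04, and −2.04, adjusted p = 3.08e-10), in the authors' deposited tables, at 0.827 to 1.70 FPKM in the 4 livers. Among markers of other cells, the Cpt1a knockout had 1 of 8 endothelial, 1 of 8 stellate, 2 of 8 lymphocyte and 1 of 5 neutrophil genes higher and none lower than the reference group in the authors' deposited table. For the endothelial and stellate lists this is not above the share of all genes called. In the Cpt2 group 1 endothelial gene was lower, and none of the stellate, lymphocyte or neutrophil genes was called, in the authors' deposited table. Of 7 genes of kidney, intestine and exocrine pancreas, Fabp2, at 163 to 360 FPKM, was higher in each knockout group in the authors' deposited tables, and Slc12a1 was at 0 counts in the 4 livers. Vil1 of this list had counts of 1, 0, 0 and 0 in livers 1 to 4. The summed level of the 7 genes was 170 to 364 FPKM, nearly all of it from Fabp2. The part of other cells, of zonation and of bile duct cells in the transporter results was not tested.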

How the data were processed

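RNA was measured in 4 livers of 1 group. Per the submitters' processing notes, HISAT2 and GRCm38 (mm10) were used; for the counter, annotation release and strandedness no source used here gives a value. The deposited count table holds raw read counts, and the deposited FPKM are per kilobase and per 1000000 reads of a library size 1.06 to 1.15 times the summed counts. A further 8 per-sample columns match no sample of the series and were not used. The authors' log2 fold changes, p-values and adjusted p-values, per the file headers, came from a test that no source used here names. The partial table, Cpt1a knockout over reference, lists 4461 genes, and its adjusted values fit 16862 tested genes; the other tables have 17475 and 17755. With 1 group no test between groups could be fitted, so calls are the authors' (adjusted p below 0.05). Genes with an adjusted p of 1 were counted as not tested.

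Means and SDs were computed with pandas 2.3.3 and numpy 2.4.6 (Python 3.11.15). The median-of-ratios size factors and the count of tests behind a partial table were tested on simulated data. Gene coordinates of all 10 members equal those of GENCODE vM21. Counting error is Poisson error and covers counting only. The members, 6 companion lists and 10 marker lists were chosen with earlier results of these data known. Named were all members, Cpt1a, Cpt2 where needed, and in each companion list up to 4 genes with the smallest adjusted p in the Cpt1a knockout against the reference group; any further gene is a marker or is marked in the text as picked with its values known. Some genes that the rule names are not reported here. Alternatives were other thresholds, scalings, pseudocounts and leaving out each liver.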

Additional observations from a re-analysis of the deposited data

Results flagged for a closer look

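For 5 of the 10 transporters the change from the reference group differed between the Cpt1a knockout and the Cpt2 group, by the authors' direct comparison with an adjusted p below 0.05. The same comparison called 28.8% of all genes, and 35.4% of those with a mean count of at least 10. The log2 differences (Cpt1a knockout over Cpt2 group) in the authors' deposited table were 1.94 for Slco1a1, 1.44 for Abcb11, 0.70 for Slco1b2, 0.60 for Slc10a1 and −1.15 for Abcc3. The comparison sets the 4 livers of this series against libraries of an earlier series, so a difference between batches and one between genotypes cannot be told apart. No transporter had a liver whose gap to the others passed Dixon's critical value for 4 samples; the nearest was Slco1b2, with a ratio of 0.801 for liver 1.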

How the results depend on the processing

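The number of transporters called stayed within 1.5 times its value under every alternative tried. Against the reference group it was 2 for the Cpt1a knockout (3 at an adjusted p below 0.10, Slc10a1 being the third) and 6 for the Cpt2 group (5 below 0.01, without Abcc3). Between both knockout groups it was 5, and 7 below 0.10, with Abcb4 and Slco2b1 added. A minimum change of 1.5-fold and a mean count of at least 10 gave 2, 6 and 5 calls again, and centring on the median of all genes turned no direction. The median of the 10 mean levels was 38.4 FPKM, 101 in TPM, a unit that rescales every gene, and 35.1 to 41.0 FPKM with 1 liver left out. The median SD on the log2(FPKM + 1) scale was 0.26, and 0.13 to 0.31 with 1 liver left out; the lowest was without liver 1, which took Slc10a1 from 0.16 to 0.05 and Slco1b2 from 0.28 to 0.08. Between neighbours, 8 pairs kept 1 order in every liver with each liver left out. By CPM, which ignores length, 3 genes changed rank, with Abcc2 and Abcb4 above Slc10a1. No paired analysis was possible because the series holds 1 group. Depth limits Abcc4, with 62 to 73 counts per liver. The authors' calls were not recomputed, because the further 8 per-sample columns match no sample of the series and were not used.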

Other observations

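Transcripts that lie among the Slco1 genes were chosen after their values were seen. Gm30784, a long non-coding RNA gene between Slco1a4 and Slco1a1 on chromosome 6 (141866358 to 141875220, plus strand, mean FPKM 3.17, mean count 38.5), was lower in the Cpt1a knockout (log2 fold change −1.68, adjusted p = 0.00423) and in the Cpt2 group (−2.04, adjusted p = 8.11e-05) in the authors' deposited tables. Gm22036, annotated as a miscellaneous RNA inside Slco1a1 on the same strand (141915078 to 141915292, mean count 16.8), was also lower in both (−1.84, adjusted p = 1.11e-04, and −2.50, adjusted p = 1.16e-06) in the authors' deposited tables. Its host Slco1a1 was not listed for the Cpt1a knockout and had a summed log2 fold change of 0.35. Gm6614, a further protein-coding gene of the cluster at a mean count of 19.8, was higher in the Cpt1a knockout than in the Cpt2 group (1.35, adjusted p = 0.0372) in the authors' deposited table. These genes rest on few counts, and how reads were assigned inside Slco1a1 is not given in the sources used here.

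Among bile acid enzymes, Akr1c6 was at 192, 300, 216 and 207 FPKM and was 2.90 higher on the log2 scale in the Cpt1a knockout than in the Cpt2 group (adjusted p = 1.21e-21) in the authors' deposited table. The Cpt2 group was below the reference group for Akr1c6 (−2.73, adjusted p = 1.86e-14) by the authors' deposited table. For the Cpt1a knockout Akr1c6 was not listed, and its untested summed log2 fold change was 0.17. Cyp2c70, which makes muricholic acids in mice, was lower than in the reference group in both (−1.99, adjusted p = 0.0130, and −4.26, adjusted p = 1.27e-08) in the authors' deposited tables. Ephx1, an epoxide hydrolase of the basolateral list, was higher in the Cpt2 group than in the reference group (0.79, adjusted p = 4.57e-04) and lower in the Cpt1a knockout than in the Cpt2 group (−1.06, adjusted p = 1.66e-14) in the authors' deposited tables. These 3 genes were chosen after their values were seen.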
